A study of Rattus norvegicus with 69 samples.

Results

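The ubiquitin conjugating (Ube2) and ubiquitin specific protease (Usp) genes of the rat were followed through the seminiferous epithelium. Members were all genes with a probe set on the array whose only gene symbol began with Ube2 or with Usp and a digit. There were 72 of them, 29 Ube2 and 43 Usp genes, among 14217 genes with exactly 1 symbol. Of 135 probe sets that met the rule, the one with the highest mean signal stood for each gene, and 8 further probe sets that carried several symbols were left out, so that Ube2v1, Ube2d3 and Ube2e1 were not analysed here. Usp9y, Usp16, Usp22 and Usp26 had no probe set that met the rule and were not analysed here either.

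Ubiquitin is a small protein that is activated by an E1 enzyme, passed to an E2 conjugating enzyme (the Ube2 proteins) and joined to a target with the help of an E3 ligase. Chains of ubiquitin send proteins to the proteasome or change their activity, and the Usp proteins are the main family of proteases that take ubiquitin off again. In the testis this system is needed while chromatin is rebuilt, the X and Y chromosomes are silenced in meiosis, and most histones, organelles and cytoplasm are removed from spermatids; male mice without Ube2b are infertile.

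RNA had been hybridised to Affymetrix rat arrays, with 1 array for each of 69 samples from Sprague Dawley rats. Of these, 49 were tubules dissected by transillumination into 10 stage groups (5 samples each, 4 for stage IV-V, where no replicate 1 was listed), each pooling 25 segments from each of 2 rats aged 55 to 60 days. The isolated cells were Sertoli cells (4 samples, about 85% pure), pachytene spermatocytes (4) and round spermatids (4) from rats of the same age. Younger rats, aged 18 to 20 days, gave the group of spermatogonia plus early spermatocytes (3). The germ cells had been separated by elutriation at 85% to 95% purity, and 5 samples were whole testis, whose age the labels did not give. No genotype or treatment other than dissection or isolation was labelled. The group titled IX-XI carried the source name IX-XII, so that it may hold stage XII tubules.

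The DNA just upstream of 4 members is shown because the largest changes below turned on them. These are Ube2d2b, which rose most in meiosis, its near relative Ube2d2, which did not, Ube2g2, which made the largest rise between neighbouring stages, and the X-linked Ube2a. The sequences are from RefSeq, rat assembly GRCr8, and each runs from 250 bases before the annotated start to 50 bases after it. Capitals mark TGACG, the core of the site bound by the CREB and CREM family of factors, read on either strand (CGTCA on the other). Ube2d2b lies on the minus strand at chr14:2062351-2062650, Ube2d2 on the plus strand at chr18:27638149-27638448, Ube2g2 on the minus strand at chr20:11005011-11005310 and Ube2a on the plus strand at chrX:120979834-120980133.
Ube2d2b: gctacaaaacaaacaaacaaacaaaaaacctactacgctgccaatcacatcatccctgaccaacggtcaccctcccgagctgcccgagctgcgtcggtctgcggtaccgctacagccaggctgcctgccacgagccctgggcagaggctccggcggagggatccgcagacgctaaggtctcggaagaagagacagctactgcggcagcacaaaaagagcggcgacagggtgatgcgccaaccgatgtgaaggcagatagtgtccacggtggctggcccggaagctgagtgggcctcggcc
Ube2d2: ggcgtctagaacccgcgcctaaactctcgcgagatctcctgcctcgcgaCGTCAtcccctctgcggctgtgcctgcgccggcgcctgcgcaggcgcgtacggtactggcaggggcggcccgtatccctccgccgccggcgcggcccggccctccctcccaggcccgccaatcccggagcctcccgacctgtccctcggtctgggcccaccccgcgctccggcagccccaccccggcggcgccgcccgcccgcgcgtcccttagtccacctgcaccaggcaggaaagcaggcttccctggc
Ube2g2: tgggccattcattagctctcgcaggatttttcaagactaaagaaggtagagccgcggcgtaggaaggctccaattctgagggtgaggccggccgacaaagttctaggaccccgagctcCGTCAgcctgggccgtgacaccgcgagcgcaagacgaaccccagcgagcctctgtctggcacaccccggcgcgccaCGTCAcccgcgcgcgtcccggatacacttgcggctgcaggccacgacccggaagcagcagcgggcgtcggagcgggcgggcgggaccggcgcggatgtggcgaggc
Ube2a: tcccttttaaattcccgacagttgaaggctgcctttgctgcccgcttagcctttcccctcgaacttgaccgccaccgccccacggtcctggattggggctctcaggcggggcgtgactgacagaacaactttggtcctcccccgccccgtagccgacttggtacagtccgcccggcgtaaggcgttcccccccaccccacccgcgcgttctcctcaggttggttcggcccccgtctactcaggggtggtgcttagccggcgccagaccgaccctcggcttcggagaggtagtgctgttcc

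The searched letters occurred 2 times in the Ube2g2 window, 1 time in that of Ube2d2, and were not in those of Ube2d2b and Ube2a. Promoters were found in the RefSeq table for 59 of the 72 members, and 22 of these (37.3%) held the letters, against 7097 of 33469 promoters of the same length (21.2%). The members' windows were richer in CG: the median GC content was 65.0% against 51.7% over all promoters, and the median number of CpG dinucleotides 28 against 7. The Ube2d2b gene spans 1475 bases, the shortest of the 72 members, whose median span is 46260 bases. Ube2d2 spans 41988 bases and Ube2a 10781.

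All levels below are array signals on the linear scale of the deposited table, given as mean ± SD. Changes and folds are on the scale of log2(signal + 5.12), where 5.12 is the 10th percentile of the table, and are smaller than the plain ratio for low signals. A gene was tested when its signal passed 43.7, the table's median, in at least 3 samples of the comparison. A change was called at an adjusted p under 0.05 and at least 2-fold (limma, Benjamini-Hochberg over all probe sets tested). Usp43 passed this filter nowhere, and Usp13 and Usp31 passed it in tubules only. Levels of different genes are not set against each other, since probes differ in brightness. Nothing in the labels states that the isolated cell samples came from separate rats, so their p-values measure the spread between preparations that may share animals. The number of arrays, 3 to 5 a group, limits the precision.

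Array medians ranged from 30.9 to 58.2, and the mean correlation among arrays of 1 group from 0.898 to 0.97. The Sertoli cell samples held their own marker transcripts: the summed signal of 10 measured Sertoli markers was 14200 to 20300 there and 499 to 995 in pachytene spermatocytes and round spermatids, but 3560 to 4770 in spermatogonia plus early spermatocytes. Within that list Shbg averaged 2240 and Wt1 1010 in Sertoli cells, but Amh (58.2) and Rhox5 (43.0) lay near the table's median. Spermatogonia plus early spermatocytes carried Kit at 150 and Dmrt1 at 249, beside 42.9 and 233 in Sertoli cells. Their Gfra1 was 58.2, beside 158 in round spermatids, and their Sall4 53.5, beside 44.2 in Sertoli cells. They also carried other cells' markers: the sum of 7 Leydig cell markers was 6510 to 9980 there, 5730 to 7590 in Sertoli cells and 227 to 436 in pachytene spermatocytes, and that of 7 macrophage and blood markers 2690 to 3300 against 356 to 431 in Sertoli cells. The summed spermatogonia markers (5 of 8 measured) were 759 to 1140 in that group but 1420 to 1770 in Sertoli cells, with Uchl1 at 451 and 1180. Summed pachytene markers overlapped, at 10100 to 15200 in pachytene spermatocytes and 11000 to 11800 in round spermatids. Summed round spermatid markers were 1630 to 2620 and 10000 to 10700 in these groups. Summed elongating spermatid markers were 8850 to 13100 in pachytene spermatocytes and 58.4 to 104 in spermatogonia plus early spermatocytes. Round spermatids had the highest 3' to 5' signal ratio of the Gapdh control probes, 2.13 ± 0.306 (SD, n = 4) against 1.22 ± 0.196 (SD, n = 4) in pachytene spermatocytes. Stage VIIc.d (1.17 to 2.05) and stage IX-XI (0.975 to 1.71) held the widest ranges among tubules.

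Over the 10 stages, 32 of 71 tested members were stage-regulated, 45.1%, beside 37.9% of all 11983 genes tested. The highest over the lowest stage had a median log2 range of 0.906 in members and 0.913 in all genes. The count was 16 of 29 Ube2 genes and 16 of 42 Usp genes. Counts by role group below stand beside the same 37.9% of all genes. These groups are small, and whether any differed from that share was not tested. Of the 32, 6 peaked at stage II-III (18.8%, beside 7.51% of all stage-regulated genes), 5 at stage VIIa.b (15.6%, beside 7.64%), 5 at stage VIII (15.6%, beside 10.8%), 4 at stage I (12.5%, beside 11.2%) and 4 at stage VI (12.5%, beside 12.1%). A further 3 peaked at stage IX-XI, 2 at stage VIIc.d, 2 at stage XIII-XIV, 1 at stage IV-V and 0 at stage XII, where 12.7%, 9.66%, 11.7%, 10.2% and 6.45% of all stage-regulated genes peaked. Stage I was the lowest stage of 9 of the 32 (28.1%, beside 11.3%) and stage VIII of 6 (18.8%, beside 6.27%). In tubules, which mix cell types, fewer cells of a type and less RNA per cell cannot be told apart.

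**Figure D1:**
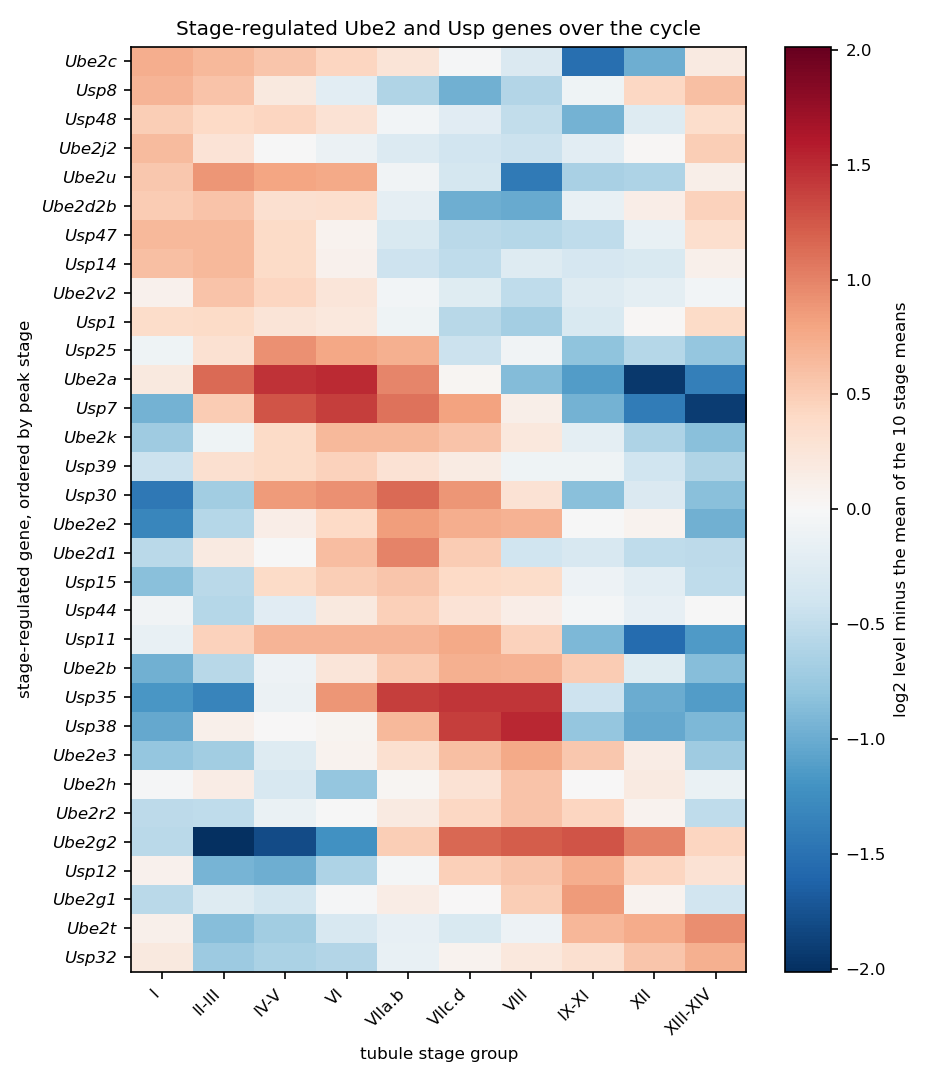
Each row is 1 of the 32 stage-regulated members and each column 1 stage group (4 or 5 tubule samples). Colour gives the mean of log2(signal + 5.12) minus the gene's mean over the 10 stages, blue below and red above. Ube2a and Usp7 are red from stage IV-V to stage VIIa.b and blue at stages XII and XIII-XIV, while Ube2g2 is blue from stage II-III to stage VI and red from stage VIIc.d to stage XII.

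The E2 enzymes of DNA damage tolerance and repair included the largest stage change of all members, and 4 of 5 were stage-regulated. Ube2a is the X-linked homologue of yeast RAD6, which ubiquitinates histone H2B and PCNA. Its signal at stage VI was 668, 631, 582, 676 and 735 in the 5 samples, and at stage XII 50.4, 53.2, 43.4, 62.6 and 76.4. Every stage VI sample lay far above every stage XII sample. The stage means rose from 266 ± 43.4 (SD, n = 5) at stage I through 514 at stage II-III and 644 at stage IV-V to 658 ± 56.4 (SD, n = 5) at stage VI, and were 461 at stage VIIa.b, 240 at stage VIIc.d, 123 at stage VIII, 105 at stage IX-XI and 57.2 ± 12.7 (SD, n = 5) at stage XII. The span was 10.8-fold (limma F-test, adjusted p = 6.26e-30). The rise from 87.1 at stage XIII-XIV to 266 at stage I was the one step of 2-fold or more (log2 1.57, SE 0.14).

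Ube2b, the autosomal twin of Ube2a, ran later. Its samples at stage VIIc.d were 1871, 1953, 1842, 1988 and 1844, and at stage I 663, 497, 553, 648 and 590, with no overlap, a 3.22-fold span (adjusted p = 6.79e-24). The level stayed between 1661 and 1900 on average from stage VIIa.b to stage IX-XI, over which Ube2a went from 461 to 105. Ube2t, the E2 of the Fanconi anaemia pathway, was lowest at stage II-III (115 ± 12.9, SD, n = 5) and highest at stage XIII-XIV (416 ± 58.2, SD, n = 5), 3.48-fold apart (adjusted p = 1.38e-15). The stage XIII-XIV samples of Ube2t, 469, 445, 386, 453 and 329, all exceeded the stage II-III samples, 111, 96.1, 131, 119 and 119. Ube2v2, the inactive partner with which Ube2n builds signalling chains of ubiquitin, spanned 2.13-fold, from 529 ± 63.7 (SD, n = 5) at stage II-III to 244 ± 19.4 (SD, n = 5) at stage VIII. Ube2n itself had stage means of 1746 to 2046 and a 1.17-fold span (adjusted p = 0.0533), and was not called by this probe set. With the mean of all its probe sets the log2 range of Ube2n was 1.08 and it was called.

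Of the cell cycle E2 enzymes, 2 of 3 were stage-regulated. Ube2c starts ubiquitin chains for the anaphase promoting complex, the ligase that ends M phase. It averaged 918 ± 79.9 (SD, n = 5) at stage I and declined to 193 ± 36.2 (SD, n = 5) at stage IX-XI, a 4.71-fold span (adjusted p = 8.19e-26). The stage IX-XI samples were 230, 231, 152, 185 and 166 and lay below all samples of stage VIII (357, 429, 478, 503 and 500). The level was 278 ± 33.5 (SD, n = 5) at stage XII and 628 ± 68.6 (SD, n = 5) at stage XIII-XIV, the group that holds the meiotic divisions (log2 1.16, SE 0.10, adjusted p = 2.31e-11). Ube2s, which extends the chains that Ube2c starts, spanned 1.61-fold, from 2384 ± 75.3 (SD, n = 5) at stage I to 1484 ± 147 (SD, n = 5) at stage VIII, and was not called. Ube2r2, a partner of cullin ligases, rose from 86.1 ± 15.2 (SD, n = 5) at stage I to 189 ± 26.3 (SD, n = 5) at stage VIII, 2.14-fold.

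Among E2 enzymes that serve many ligases, 6 of 8 were stage-regulated. Ube2d2b, the testis form of the UBC4 type, had stage II-III samples of 4036, 3658, 2963, 4202 and 3892 and stage VIII samples of 1297, 1395, 1288, 1126 and 1133, without overlap. Its span was 2.99-fold (adjusted p = 4.73e-23), with means of 2220 at stage VIIa.b, 1263 at stage VIIc.d and 2271 at stage IX-XI. Ube2d2, the widely used form, varied only between stage means of 414 and 489 (adjusted p = 0.746). The coding sequences of this pair are alike, so each probe set may also bind RNA of the other gene, and how much was not tested. Ube2k, which builds degradative chains, spanned 2.83-fold, with 2761 at stage VI and 973 at stage XIII-XIV. Ube2e3 (2.93-fold, highest at stage VIII) and Ube2h (2.56-fold, lowest at stage VI) also changed. Another Ube2h probe set was highest at stage VI instead, with a 4.48-fold span. Ube2e2 changed 4.42-fold from 27.0 at stage I to 115 at stage VIIa.b, and Ube2d1 2.91-fold up to 43.2 between the same stages, in each case with the lower stage under the table's median.

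**Figure D2:**
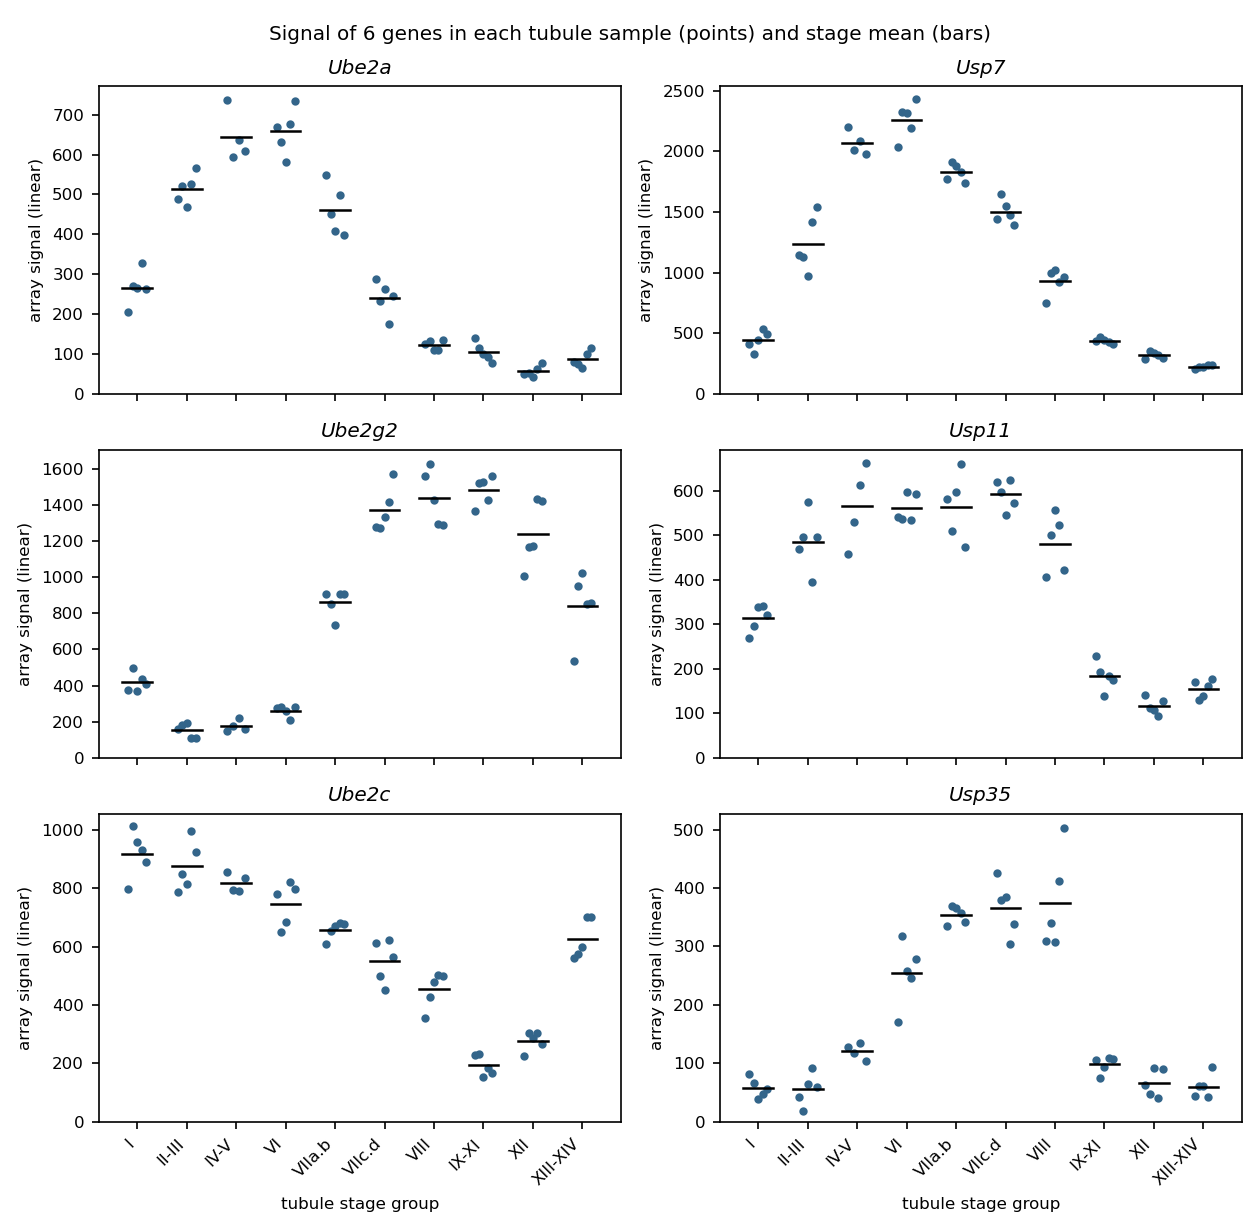
Array signal (linear axis from 0) of Ube2a, Usp7, Ube2g2, Usp11, Ube2c and Usp35 in each tubule sample (points) by stage group, with the stage mean as a bar. Ube2a and Usp7 are highest at stage VI, Ube2g2 rises between stage VI (261) and stage VIIa.b (861), and Usp11, Ube2c, Usp35 and Usp7 are all lower at stage IX-XI than at stage VIII.

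The E2 enzymes of the endoplasmic reticulum, which mark misfolded proteins for destruction, had 3 of 4 members stage-regulated. Ube2g2 works with the ligase gp78 at that membrane. Its 5 samples at stage II-III were 162, 180, 194, 110 and 112, and at stage IX-XI 1366, 1523, 1529, 1428 and 1562, all of the later group far above the earlier one. The span was 9.72-fold (adjusted p = 5.65e-31). It fell from 419 at stage I to 152 at stage II-III (log2 -1.47, SE 0.13, adjusted p = 3.95e-12) and rose from 261 ± 28.9 (SD, n = 5) at stage VI to 861 ± 75.0 (SD, n = 5) at stage VIIa.b (log2 1.71, SE 0.13, adjusted p = 5.03e-14). Ube2j2, anchored in the same membrane, ran from 1042 at stage I to 488 at stage VIII, 2.11-fold. Ube2g1 was 2.63-fold higher at stage IX-XI (209) than at stage I (78.7). Ube2j1 spanned 1.93-fold, between 1600 ± 60.1 (SD, n = 4) at stage IV-V and 3117 ± 398 (SD, n = 5) at stage IX-XI, and was not called. Without stage IX-XI replicate 1 its range just passed 2-fold and the call was made.

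None of the 4 E2 enzymes for ubiquitin-like proteins was stage-regulated by limma's F-test at the 2-fold limit: Ube2f, Ube2l6, Ube2m and Ube2z spanned 1.24-fold to 1.91-fold. Ube2m, which conjugates NEDD8, held stage means of 817 to 1018. Of 5 large or less studied E2 enzymes only Ube2u was regulated. It averaged 203 ± 42.0 (SD, n = 5) at stage II-III and 37.3 ± 10.2 (SD, n = 5) at stage VIII, 4.96-fold (adjusted p = 1.38e-16). The highest stage VIII sample of Ube2u, 45.7, was below the lowest stage II-III sample, 154. Ube2o, Ube2q1, Ube2q2 and Ube2ql1 spanned 1.57-fold to 1.87-fold.

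Of the 12 Usp genes of histones, chromatin and DNA repair, 6 were stage-regulated. Usp7 removes ubiquitin from Mdm2, p53 and histone-modifying complexes. Stage VI samples were 2035, 2326, 2320, 2197 and 2429, and stage XIII-XIV samples 202, 220, 225, 239 and 237, a 9.86-fold span (adjusted p = 1.35e-35). Usp7 rose from 444 ± 76.6 (SD, n = 5) at stage I to 1241 ± 231 (SD, n = 5) at stage II-III (log2 1.47, SE 0.10) and fell from 931 at stage VIII to 440 at stage IX-XI. Usp11, an X-linked enzyme of double strand break repair, kept means of 482 to 593 from stage II-III to stage VIII and then fell: stage VIII samples were 406, 501, 557, 523 and 422 and stage IX-XI samples 229, 193, 139, 185 and 175 (log2 -1.37, SE 0.12, adjusted p = 5.01e-13). Its lowest level was 117 ± 19.0 (SD, n = 5) at stage XII, 4.95-fold under stage VIIc.d.

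The other 4 chromatin enzymes were Usp48 (2.71-fold, highest at stage I), Usp47 (2.35-fold) and Usp1 (2.10-fold), both highest at stage II-III, and Usp44 (2.06-fold, highest at stage VIIa.b). Usp1 takes ubiquitin off PCNA and FANCD2, which the Ube2a and Ube2t pathways mark. It averaged 2226 ± 163 (SD, n = 5) at stage II-III, 1061 ± 111 (SD, n = 5) at stage VIII and 2225 ± 297 (SD, n = 5) at stage XIII-XIV. Usp44, which acts on histone H2B and the spindle checkpoint, lay close to the limit: without stage VIIa.b replicate 1 its range fell just under 2-fold and it was not called. Usp42 spanned 1.45-fold and was not called.

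Among 9 Usp genes of membranes, endosomes and organelles 4 were regulated. Usp30, which sits on mitochondria and opposes their removal, averaged 48.9 ± 10.6 (SD, n = 5) at stage I and 312 ± 20.9 (SD, n = 5) at stage VIIa.b, 5.96-fold, and rose from 91.9 at stage II-III to 258 at stage IV-V (log2 1.56, SE 0.23). Usp12, a partner of Wdr48, had its highest mean of 2037 at stage IX-XI and its lowest of 615 at stage IV-V, 3.27-fold, with a fall from 1288 ± 76.2 (SD, n = 5) at stage I to 637 ± 103 (SD, n = 5) at stage II-III. Usp8, an endosomal enzyme also described at the acrosome, ran the other way, from 880 at stage I to 285 at stage VIIc.d, 3.13-fold. Usp32 rose from 155 at stage II-III to 430 at stage XIII-XIV, 2.73-fold.

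Of 12 tested Usp genes of signalling and other roles, Usp35, Usp38 and Usp15 were regulated. Usp35 climbed from 55.4 ± 27.4 (SD, n = 5) at stage II-III through 121 at stage IV-V and 254 at stage VI to 374 ± 83.4 (SD, n = 5) at stage VIII. Its stage VIII samples, 309, 340, 307, 411 and 503, were all above those of stage IX-XI, 105, 74.6, 93.6, 109 and 108 (log2 -1.86, SE 0.23, adjusted p = 2.42e-08). Usp38 had the steepest single step of all members, from 226 ± 30.4 (SD, n = 5) at stage VIII to 47.8 ± 27.8 (SD, n = 5) at stage IX-XI (log2 -2.30, SE 0.28, adjusted p = 1.30e-08). A second Usp38 probe set spanned 1.30-fold over the stages (limma F-test, adjusted p = 0.724), so that this step rests on 1 probe set. Usp15 was 2.63-fold higher at stage VIIa.b (1242) than at stage I (471). Usp14, the ubiquitin protease of the proteasome itself, was the regulated 1 of 3 in its group, from 485 at stage II-III to 212 at stage VIIc.d, 2.26-fold.

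Of 3 Usp genes named in testis work, Usp25 was regulated and Usp2 and Usp9x were not. Usp25 averaged 53.6 at stage IV-V and 15.5 at stage IX-XI, 3.31-fold on a low signal (adjusted p = 7.50e-05). Usp2, which has a testis isoform and whose loss lowers male fertility in mice, spanned 1.80-fold between 1916 ± 137 (SD, n = 5) and 3454 ± 191 (SD, n = 5). Usp9x spanned 1.57-fold, between 105 and 169. Of 3 Usp-named proteins with no or doubtful protease activity, the splicing factor Usp39 changed 2.09-fold, and Usp54 (1.72-fold) and the Rab GTPase activator Usp6nl (1.76-fold) were not called. Without stage II-III replicate 3, Usp6nl had a log2 range of 1.02 and was called.

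Between neighbouring stages there were 17 calls in 10 members. The largest group was the step from stage VIII to stage IX-XI, which follows sperm release: Ube2c, Usp11, Usp30, Usp35, Usp38 and Usp7 all fell, 6 of 71 members (8.45%) beside 3.86% of all genes. The summed signal of 7 measured round spermatid markers was 6430 to 7750 at stage VIII and 5350 to 6030 at stage IX-XI, so that it moved the same way, and its part in the result was not tested. From stage I to stage II-III 4 members changed, beside 4.45% of all genes: Usp7 and Usp38 rose, and Ube2g2 and Usp12 fell. From stage II-III to stage IV-V Usp30 and Usp35 rose, beside 2.57% of all genes. Without stage II-III replicate 2 that count was 1.

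Single calls were made at 5 further steps. From stage IV-V to stage VI, Usp35 rose, beside 0.609% of all genes, and 0 calls remained without stage IV-V replicate 5, without stage VI replicate 5 or without stage VI replicate 2, and likewise with the constant at the 25th percentile or with arrays scaled to 1 median. From stage VI to stage VIIa.b Ube2g2 rose, beside 2.8% of all genes; with the mean of all probe sets of a gene 0 members were called there. From stage VIIc.d to stage VIII Ube2u fell, from 82.0 ± 9.96 (SD, n = 5) to 37.3, beside 0.618% of all genes; there were 2 calls without stage VIIc.d replicate 4 and 0 without stage VIII replicate 1 or with the constant at the 25th percentile. From stage XII to stage XIII-XIV Ube2c rose, beside 1.28% of all genes, and from stage XIII-XIV to stage I Ube2a rose, beside 1.8% of all genes. The step to stage XIII-XIV had 2 calls when stage I replicate 1, 3, 4 or 5, stage VI replicate 3 or 5, stage IX-XI replicate 1 or 4, or stage XIII-XIV replicate 4 or 5 was left out. The step to stage I had 4 calls without stage I replicate 2, 3 without stage XIII-XIV replicate 1, and 2 without stage I replicate 1 or stage XIII-XIV replicate 4 or 5, and 0 with the mean of all probe sets of a gene. From stage VIIa.b to stage VIIc.d (background 1.24%) and from stage IX-XI to stage XII (background 1.57%) limma called 0 members, while 22 members (31%, beside 21.8% of all genes) and 27 members (38%, beside 26.2%) had an unadjusted p under 0.05. One call appeared at the former without stage VIIa.b replicate 5, stage VIIc.d replicate 3, stage VIIc.d replicate 1 or stage IX-XI replicate 2.

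Probe sets of the same gene did not always run alike. In 39 members more than 1 probe set was present; of 16 stage-regulated members with another tested probe set, 13 had another that was also regulated, and in 10 members the regulated probe sets peaked at different stages. Those were Ube2a, Ube2g1, Ube2g2, Ube2h, Usp7, Usp8, Usp11, Usp25, Usp30 and Usp48. In Ube2b, Ube2k and Usp38 no other tested probe set was regulated. For Ube2a the weaker probe set peaked at stage XII with a 3.36-fold span, the stage at which the stronger one was lowest. For Ube2g2 the weaker one peaked at stage VI (3.43-fold) rather than stage IX-XI. For Usp7 the other 3 probe sets peaked at stage IV-V, next to stage VI. For Usp11 and Usp30 the second probe sets peaked at stages VIIa.b (7.54-fold) and IV-V (7.70-fold), and for Usp8 at stage XIII-XIV (13.2-fold), next to or near the first peaks. Ube2n, Usp2, Usp24 and Usp42, not regulated by the probe set with the highest mean, were regulated by another, at 3.88-fold, 2.15-fold, 16.4-fold and 2.24-fold. Probe sets can read different transcript ends of a gene, and which transcripts these read was not tested.

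In the isolated cells, the highest of the 4 group means was in round spermatids for 31 members, in Sertoli cells for 20, in spermatogonia plus early spermatocytes for 13 and in pachytene spermatocytes for 8. The matching shares of all genes were not computed, so these counts alone do not set the members apart from other genes. A member was called enriched where 1 group exceeded each of the other 3 by 2-fold with an adjusted p under 0.05. Only the probe set with the highest mean was used for this. Round spermatids had 12 such members of 69 tested (17.4%), beside 7.01% of all 11447 genes tested: Ube2a, Ube2c, Ube2g2, Ube2j1, Ube2k, Ube2n, Usp7, Usp12, Usp15, Usp30, Usp35 and Usp44. Of these, 10 (83.3%) were also stage-regulated in tubules, as were 704 of 803 genes (87.7%) enriched in round spermatids overall. Sertoli cells had 4 (Ube2e2, Ube2d1, Ube2h and Usp4), beside 7.26% of all genes. Spermatogonia plus early spermatocytes had 2 (Usp25 and Ube2l6), beside 5.77%, with 1 left without Sertoli cells replicate 1, pachytene spermatocytes replicate 1 or replicate 3 of their own group. Pachytene spermatocytes had Usp32 alone, beside 2.38%, and 2 members without pachytene spermatocytes replicate 3 or without replicate 1 of spermatogonia plus early spermatocytes.

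Between spermatogonia plus early spermatocytes and pachytene spermatocytes, 22 members of 69 rose (31.9%, beside 21.2% of all genes) and 19 fell (27.5%, beside 28.3%). The median log2 change was 0.20 in members and -0.11 in all genes. Every pachytene sample was above every earlier sample in 29 of 72 members (40.3%, beside 26.9% of all 14217 genes) and below in 29 (40.3%, beside 34.1%). Scaling all arrays to 1 median moved the median of all genes from -0.11 to 0.27 here and from -0.15 to 0.19 for Sertoli cells, and member counts became 25 higher and 15 lower here. The earlier germ cells came from younger rats and held Leydig and blood cell markers at the levels given above, and their summed Sertoli markers were 3560 to 4770 against 689 to 995 in pachytene spermatocytes. The part of age or of these cells in the changes was not tested.

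Ube2d2b made the largest change. Its samples were 59.0, 52.1 and 58.3 in the early germ cells (spermatogonia plus early spermatocytes), then 2782, 2002, 2374 and 3153 in pachytene spermatocytes and 2754, 2776, 2693 and 2719 in round spermatids. The earlier germ cells stood near the table's median of 43.7 and every later sample far above it, with no overlap (log2 5.37, SE 0.19, adjusted p = 5.29e-14). Sertoli cells were at 130 ± 42.0 (SD, n = 4). Ube2d2 went from 793 ± 50.3 (SD, n = 3) to 706 ± 30.0 (SD, n = 4), a log2 change of -0.16 (adjusted p = 0.22), and was 442 ± 71.7 (SD, n = 4) in round spermatids. Ube2d1 of the same family fell (log2 -3.07, SE 0.26), from 48.0 to a signal of 1.05 that is far under the table's median.

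Usp44, Usp2, Ube2u and Ube2g2 followed as the members that rose most. Usp44 was 21.4, 16.8 and 29.9 before, 411, 370, 384 and 403 in pachytene spermatocytes and 887, 921, 887 and 784 in round spermatids, each group above the one before (log2 3.86, SE 0.15, and 1.14, SE 0.14). Usp2 was 172, 153 and 94.9 before and 1872, 1761, 1940 and 2168 in pachytene spermatocytes (log2 3.78, SE 0.16, adjusted p = 3.18e-13). Ube2u was listed at 3.40 ± 1.52 (SD, n = 3) before, far below the table's median, and at 99.4 ± 26.7 (SD, n = 4) after (log2 3.60). Ube2g2 rose from 18.8 ± 14.9 (SD, n = 3) to 117 ± 9.16 (SD, n = 4) (log2 2.61, SE 0.41). Usp1 rose from 402 ± 17.9 (SD, n = 3) to 2158 ± 311 (SD, n = 4) (log2 2.40, SE 0.11). Usp30 (log2 2.36), Usp8 (2.30), Usp48 (2.24), Usp49 (2.22) and Ube2j1 (2.10) rose as well. The remaining 11, Usp20, Ube2m, Usp12, Usp32, Ube2n, Ube2l3, Usp15, Ube2q2, Ube2v2, Ube2f and Usp47, rose by 1.06 to 1.87. Ube2t moved from 356 to 682 (log2 0.91) and Ube2b from 807 to 620 (log2 -0.38), both under 2-fold. Second probe sets of Ube2g2 (log2 -0.45), Usp30 (-0.03), Ube2n (-0.18), Ube2l3 (-0.97) and Ube2q2 (0.02) were not called in this comparison. A second probe set of Usp1, Usp2, Usp8, Usp20, Usp32, Usp47 and Ube2f was called higher too.

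**Figure D3:**
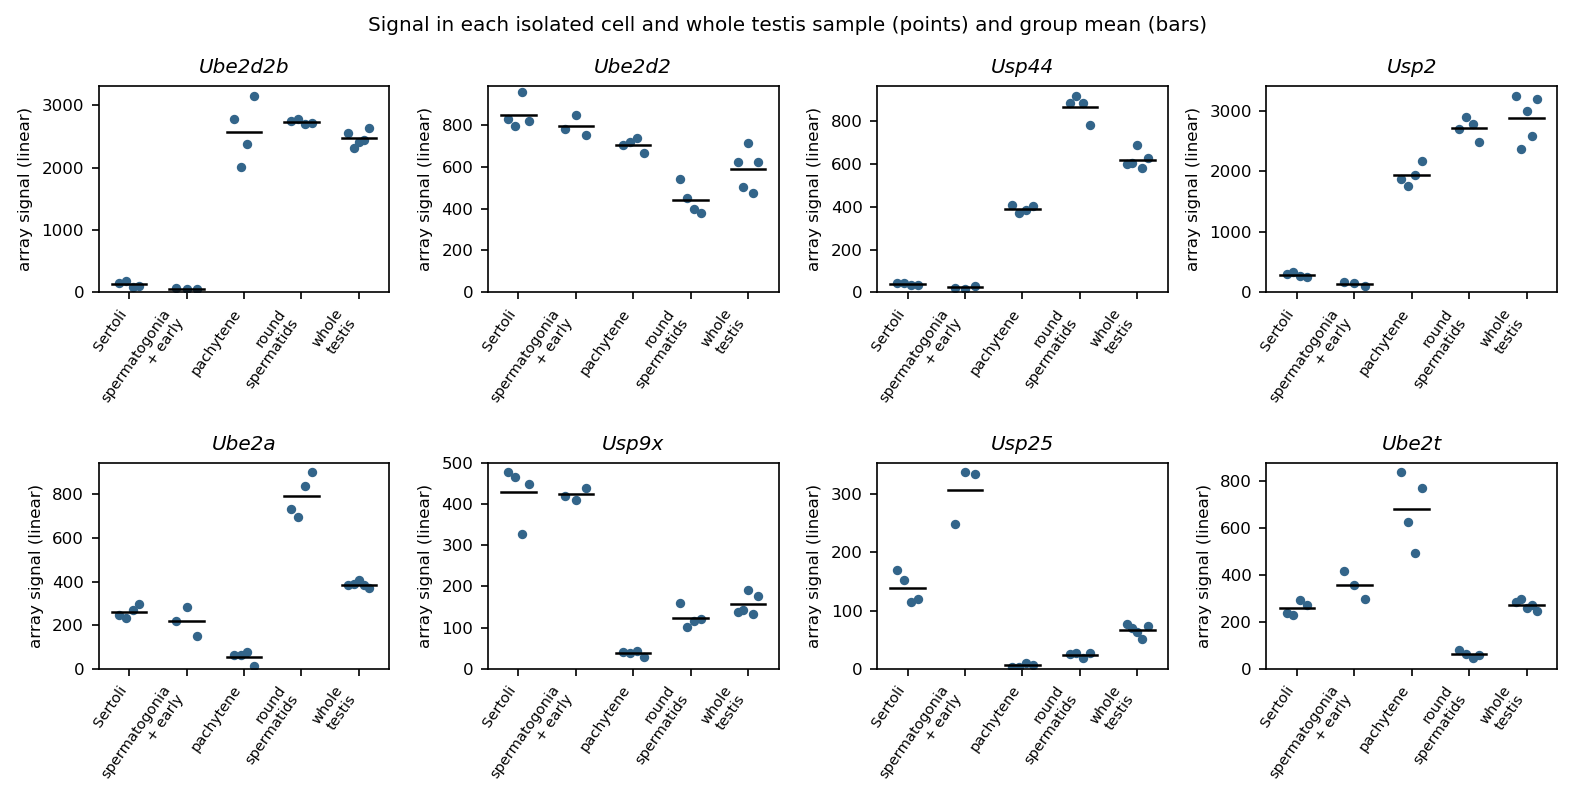
Array signal (linear axis from 0) of 8 members in each isolated cell and whole testis sample (points), with the group mean as a bar. Ube2d2b, Usp44 and Usp2 are low in Sertoli cells and early germ cells and high in pachytene spermatocytes and round spermatids, Ube2d2 is present in all groups, Ube2a and Usp9x are lowest in pachytene spermatocytes, and Ube2t drops from pachytene spermatocytes (682) to round spermatids (61.0).

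Of the members that fell, Usp25 fell most: it was 248, 338 and 336 in the early germ cells and 2.12, 2.59, 10.6 and 6.67 in pachytene spermatocytes (log2 -4.94, SE 0.26, adjusted p = 6.84e-12). All 4 pachytene samples lay far below the table's median of 43.7. Usp33, an enzyme of receptor recycling, fell from 475 ± 37.2 (SD, n = 3) to 39.0 ± 8.17 (SD, n = 4) (log2 -3.46), and Usp3, which acts on histone H2A, from 415 ± 77.2 (SD, n = 3) to 42.7 ± 6.78 (SD, n = 4) (log2 -3.13). Usp24, Ube2g1, Ube2r2, Usp28, Ube2e2, Usp36, Ube2h, Ube2l6, Ube2z, Usp10 and Ube2e3 fell too, Usp24 by the most (2.82 on the log2 scale) and Ube2e3 by just 2-fold. A second Usp25 probe set changed by -0.44 in the same comparison and was not called, so that the fall of Usp25 rests on 1 probe set. Other tested probe sets of Ube2h (log2 0.72 and -0.54) and Ube2z (-0.27) were not called either. Those of Usp24 (-3.26) and Ube2g1 (-1.34) were called lower too. For Usp48 a second probe set fell (log2 -1.51) where the first rose.

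All 4 X-linked members were among those that fell. Genes of the X chromosome are shut down in pachytene spermatocytes, when the X and Y chromosomes form the sex body. Usp9x, a large enzyme with roles in cell polarity and protein turnover, was 420, 411 and 440 before, 41.1, 37.0, 43.1 and 28.5 in pachytene spermatocytes and 124 ± 25.2 (SD, n = 4) in round spermatids (log2 -3.35, SE 0.17, and then 1.60, SE 0.15). Ube2a was 220, 284 and 152, then 61.0, 61.9, 74.4 and 14.0, then 734, 698, 838 and 902 (log2 -2.09, SE 0.34, and 3.96, SE 0.31). Usp11 was 316, 306 and 297, then 120, 128, 115 and 106, then 582, 529, 625 and 576 (log2 -1.35 and 2.25). In Ube2a and Usp11 the pachytene samples lay below all samples of both other germ cell groups. Usp27x fell from 54.0 to 11.2 (log2 -1.94) and was 16.6 in round spermatids (log2 0.48, adjusted p = 0.161), below the table's median in both.

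The same held for the chromosome at large. Of 345 X-linked genes tested, 236 (68.4%) fell between these groups and 7 (2.03%) rose, with a median log2 change of -1.87, and 85 (24.6%) rose from pachytene spermatocytes to round spermatids with a median of 0.29. The direction of all 4 members was kept when arrays were scaled to 1 median or quantile normalised. With arrays scaled to 1 median Usp11 changed by -0.96, under 2-fold, and was not called lower. Of the 65 autosomal members tested, 22 rose and 15 fell. Over all genes tested, X-linked ones included, 21.2% rose and 28.3% fell. Shares of autosomal genes alone were not computed.

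**Figure D4:**
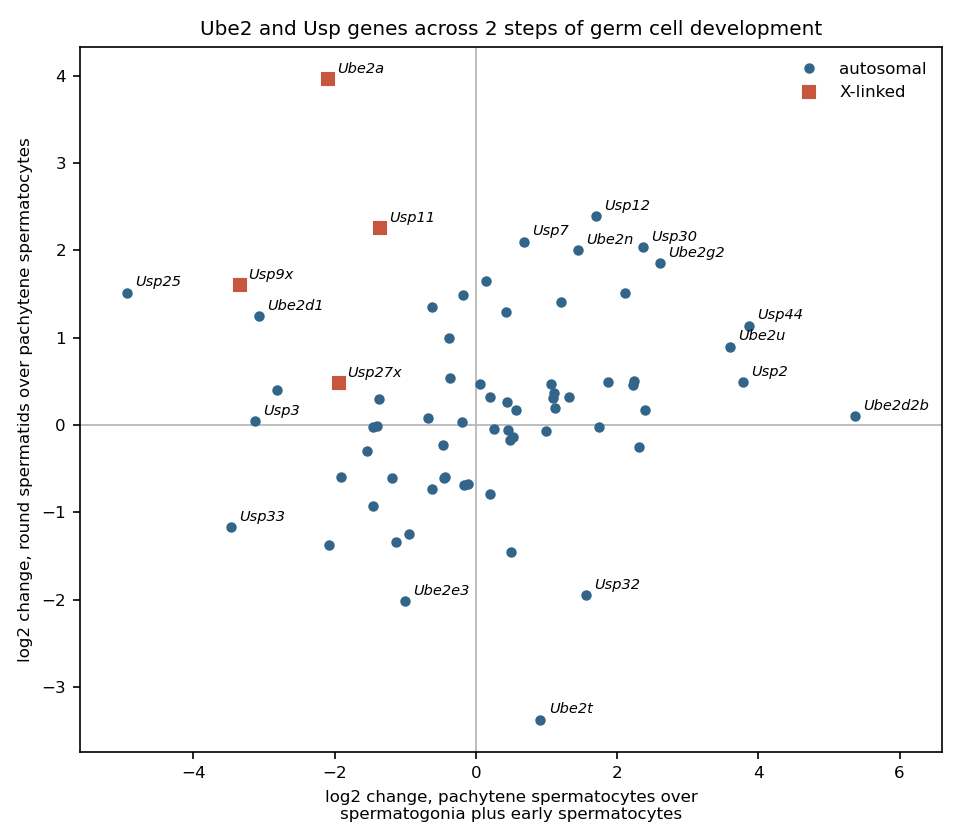
Each point is 1 of 69 tested members. The horizontal axis is the log2 change from spermatogonia plus early spermatocytes to pachytene spermatocytes and the vertical axis the log2 change from pachytene spermatocytes to round spermatids; both share the pachytene samples. The 4 X-linked members (squares) lie left of 0 and above 0, Ube2d2b lies at the far right (5.37) and Ube2t at the bottom (-3.37).

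From pachytene spermatocytes to round spermatids, 17 members of 69 rose (24.6%, beside 11.1% of all genes) and 8 fell (11.6%, beside 12.5%). The median log2 change was 0.20 in members and -0.02 in all genes. Every round spermatid sample was above every pachytene sample in 30 of 72 members (41.7%, beside 19.6% of all genes) and below in 16 (22.2%, beside 22.8%). The groups also differed in the 3' to 5' ratio of the Gapdh control given above, and its part in the result was not tested. Among E2 enzymes the risers were Ube2a, Ube2n, Ube2g2 (log2 1.85), Ube2k (1.65), Ube2j1 (1.51), Ube2c (1.29) and Ube2d1 (1.25, at signals under the table's median). Ube2n was 317, 264, 266 and 247 in pachytene spermatocytes and 1177, 1465, 1005 and 873 in round spermatids (log2 2.01, SE 0.15, adjusted p = 4.60e-09). Ube2c, the mitotic E2, was 104 in Sertoli cells, 298 in the early germ cells, 401 in pachytene spermatocytes and 986 ± 30.0 (SD, n = 4) in round spermatids, which no longer divide.

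The Usp genes that rose were Usp12, Usp11, Usp7, Usp30, Usp9x, Usp25, Usp35, Usp15, Usp38 and Usp44. Usp12 was 198, 152, 210 and 146 in pachytene spermatocytes and 931, 1226, 776 and 866 in round spermatids (log2 2.39, SE 0.18, adjusted p = 3.08e-09). Usp7 was 422, 473, 423 and 293, and then 1735, 1697, 1739 and 1694 (log2 2.10, SE 0.15). In both genes every round spermatid sample was above every pachytene sample. Usp30 rose from 52.6 ± 18.7 (SD, n = 4) to 220 ± 19.9 (SD, n = 4) (log2 2.04, SE 0.26). Other tested probe sets of the risers did not all rise. Those of Ube2g2 (log2 0.32), Usp30 (0.27), Usp25 (0.54), Usp38 (0.01) and Ube2d1 (0.41) were not called. Nor were those of Ube2k (0.08 and -0.09) and Usp9x (0.38 and -0.02). For Usp7, those at 0.42 and 0.01 were not called and that at 2.44 was. Those of Ube2a (1.31), Ube2n (1.13) and Usp11 (3.05) were called higher.

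Those that fell were led by Ube2t: 838, 626, 493 and 770 in pachytene spermatocytes and 78.3, 61.4, 44.8 and 59.5 in round spermatids (log2 -3.37, SE 0.17, adjusted p = 2.77e-11), with no overlap. Ube2e3 fell from 379 ± 54.0 (SD, n = 4) to 89.2 ± 6.10 (SD, n = 4) (log2 -2.02) and Usp32 from 747 ± 32.2 (SD, n = 4) to 192 ± 27.3 (SD, n = 4) (log2 -1.94). Usp54 (log2 -1.45), Ube2g1 (-1.37), Usp10 (-1.34), Usp5 (-1.24) and Usp33 (-1.17) made up the rest. Usp5, which disassembles free ubiquitin chains, averaged 204 and 84.0. Usp14 went from 379 to 552 (log2 0.54), under 2-fold.

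The stage and cell patterns can be set side by side for the largest movers. Usp7, Ube2a, Usp30 and Usp35 were enriched in round spermatids and highest between stages VI and VIII, when the summed round spermatid markers stood at 13800 to 14700 (stage VI), 12400 to 13700 (stage VIIa.b) and 6430 to 7750 (stage VIII). Usp35 did not follow that sum: it averaged 121 at stage IV-V, with a marker sum of 11500 to 12500, and 374 at stage VIII. Ube2g2 and Usp12 were also enriched in round spermatids and ran differently from that sum too. Usp12 averaged 615 at stage IV-V and 2037 at stage IX-XI, where the sum was 5350 to 6030. Whole testis held a mean of 719 for Ube2g2 (n = 5), above each isolated cell group, of which round spermatids were highest at 445 ± 112 (SD, n = 4). Elongating spermatids were not among the isolated cells. The summed signal of 7 elongating spermatid markers was 23700 to 32300 at stage IV-V and 51200 to 122000 at stage IX-XI. It was 34600 to 69300 in whole testis and 23400 to 29400 in round spermatids. The part of elongating spermatids in these patterns was not tested. In 9 of 72 members (12.5%), and in 8.88% of all genes, the whole testis mean exceeded all 4 isolated cell means.

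Sertoli cells, the somatic cells of the tubule, were compared with the average of the germ cell groups. Of 69 members 19 were higher (27.5%, beside 23.9% of all genes) and 18 lower (26.1%, beside 29%), with a median log2 difference of -0.21 and of -0.15 in all genes. Every Sertoli cell sample was above every germ cell sample in 10 of 72 members (13.9%, beside 12.1% of all genes) and below in 9 (12.5%, beside 18.4%). Ube2e2 was 282, 296, 256 and 263 in Sertoli cells and averaged 79.6, 28.3 and 11.2 in early germ cells, pachytene spermatocytes and round spermatids (log2 3.01, SE 0.24, adjusted p = 1.81e-09). Ube2h was 774 ± 36.8 (SD, n = 4) against 323, 119 and 119 (log2 2.19, SE 0.10), and Ube2d1 115 ± 24.6 (SD, n = 4) against 48.0, 1.05 and 9.67 (log2 2.83). Usp33 (log2 2.11) and Ube2g1 (2.10) were also higher, but spermatogonia plus early spermatocytes held Usp33 at 475 and Sertoli cells at 315. Usp4 was 508 ± 68.4 (SD, n = 4) in Sertoli cells and 148 to 208 in the germ cells (log2 1.48). Second probe sets of Usp4 (log2 0.38) and Ube2g1 (0.74) were not called. For Ube2h, that at 0.41 was not called and that at 1.305 was called higher. The second probe set of Ube2d1 (1.825) was called higher too. Leydig markers were high in the Sertoli cell samples as given above. The sum of 5 peritubular myoid cell markers was 2180 to 5290 in Sertoli cells and 228 to 655 in the germ cell samples, and that of 5 measured endothelial markers of 6 was 578 to 1650 against 93.6 to 237. The part of these cells in the differences was not tested.

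Of the members lower in Sertoli cells, Ube2d2b (log2 -2.53), Usp44 (-2.30), Usp1 (-2.25), Usp29 (-2.20) and Ube2c (-2.19) differed most. Usp29 was 13.7 ± 4.48 (SD, n = 4) in Sertoli cells and 67.6 to 98.6 in the germ cells, and its stage means of 85.5 to 106 did not differ by limma's F-test (adjusted p = 0.874). Ube2v2 and Ube2u (both -2.08), Usp15 (-2.05), Usp2 and Usp48 (both -1.64) were lower as well. Against spermatogonia plus early spermatocytes alone, Sertoli cells had the higher mean for Ube2d2b (130.5 against 56.47) and Usp44 (38.1 against 22.7). So they did for Usp2 (287.5 against 140) and Ube2u (8.61 against 3.40), and Usp48 was 68.1 and 67.0. Usp1, Usp29, Ube2c, Ube2v2 and Usp15 had lower means in Sertoli cells there too. Usp25 was higher by the probe set with the highest mean (log2 1.67) and lower by the second (-1.95). Usp48 ran the other way, lower by the probe set with the highest mean and higher by the second (log2 2.355).

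Whole testis differed little from the average tubule. Only Usp25 was called higher (1 of 71, 1.41%, beside 2.38% of all 12082 genes tested), at 77.1, 69.9, 62.9, 50.7 and 72.6 against stage means of 14.1 to 53.6 (log2 1.21, SE 0.27, adjusted p = 0.000436). These samples overlapped the highest tubule samples. Usp25 was 307 in the early germ cells and 139 in Sertoli cells. The Leydig marker sum was 2120 to 2670 in whole testis and 198 to 429 across the tubule samples, and the macrophage and blood sum 544 to 987 against 163 to 302; their part in the result was not tested. Without whole testis replicate 1 there were 2 calls. limma called 0 members lower (background 0.853%), while 13 (18.3%, beside 22.4% of all genes) were lower at an unadjusted p under 0.05, and 1 was called without whole testis replicate 2 or without whole testis replicate 4. Ube2a was 386 ± 13.2 (SD, n = 5) in whole testis, a log2 difference of 0.74 from the average stage and under 2-fold.

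**Figure D5:**
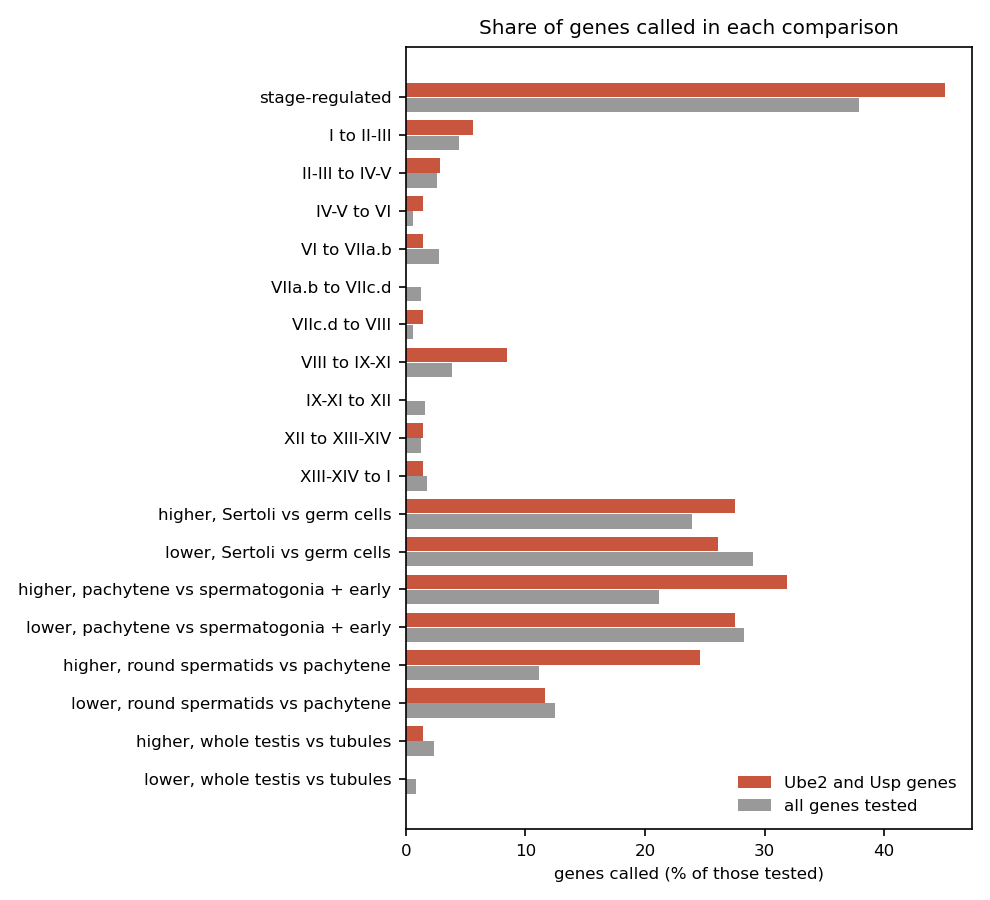
Percent of tested Ube2 and Usp genes (red) and of all tested genes (grey) called in each comparison, on an axis from 0. The members' bar is longest for stage regulation (45.1 against 37.9) and shows its widest excess over all genes for genes higher in round spermatids than in pachytene spermatocytes (24.6 against 11.1).

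The rest of the pathway was read from 7 lists of E1 enzymes, E3 ligases, subunits of the anaphase promoting complex, other deubiquitinases, partners of Usp proteins (with a few further enzymes), SUMO and NEDD8 enzymes, and genes for ubiquitin-like proteins. Of 154 names 136 were measured. In tubules 64 of 132 tested (48.5%) were stage-regulated, beside 37.9% of all genes. In pachytene spermatocytes 39 of 133 (29.3%, beside 21.2%) were higher and 29 (21.8%, beside 28.3%) lower than before. In round spermatids 20 (15%, beside 11.1%) were higher and 25 (18.8%, beside 12.5%) lower than in pachytene spermatocytes, and in Sertoli cells 25 (18.8%, beside 23.9%) were higher and 27 (20.3%, beside 29%) lower. Of 8 E1 enzymes 5 were stage-regulated. Uba1, the main ubiquitin E1, whose gene is X-linked, spanned 3.22-fold, between 454 at stage VIIa.b and 138 at stage IX-XI, and went from 867 to 82.7 in pachytene spermatocytes (log2 -3.30) and to 233 in round spermatids (log2 1.43). Nae1, the NEDD8 E1 subunit, spanned 3.64-fold.

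Of 52 tested E3 ligases and subunits 26 were stage-regulated. Wwp1, a HECT ligase, spanned 11.8-fold, from 510 at stage VI to 39.7 at stage XII, and Mdm2, the p53 ligase that Usp7 stabilises, 7.82-fold, from 2929 at stage VI to 369 at stage XII. In round spermatids Wwp1 rose from 95.8 to 534 (log2 2.44) and Mdm2 from 760 to 2228 (log2 1.55). Klhl10, a cullin adaptor needed for spermatids, rose most in pachytene spermatocytes, from 3.12 to 377 (log2 5.51), and Huwe1, an X-linked HECT ligase, fell from 532 to 37.5 (log2 -3.67). Rad18, the ligase partner of Ube2a and Ube2b, was 663 in pachytene spermatocytes against 167 before (log2 1.96) and 320 in round spermatids (log2 -1.04). Cul4a fell most in round spermatids, from 398 to 35.3 (log2 -3.34).

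Of 15 anaphase promoting complex genes 8 were stage-regulated. Anapc10 spanned 8.06-fold with its peak at stage VIIc.d (340), and Cdc26 4.36-fold with its peak at stage II-III (475). Cdc20, the activator of the complex, fell from 909 to 142 in round spermatids (log2 -2.64), where Ube2c rose. Of 26 other deubiquitinases 14 were stage-regulated. Stambpl1 changed 34.4-fold (556 at stage IV-V, 12.8 at stage XII), Otub2 25.8-fold (2864 at stage IX-XI, 109 at stage II-III) and Otud4 20.3-fold. Stambp rose from 70.8 to 1120 in pachytene spermatocytes (log2 3.89) and Cyld, a tumour suppressor protease, from 149 to 2278 (log2 3.89). Josd2 rose in round spermatids (log2 3.05), and Tnfaip3 (log2 3.51) and Uchl1 (log2 2.55) were higher in Sertoli cells.

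Of 10 measured genes in the list of partners of Usp proteins 3 were stage-regulated, Cdc34, Eny2 and Spata2. That list also held Cdc34, Ufc1 and Ube3d, which are conjugation enzymes and not partners of Usp proteins. Cdc34, an E2 under an older name and therefore outside the rule, spanned 4.27-fold, with 3466 at stage IX-XI and 806 at stage II-III. Wdr48, the activator of Usp1 and Usp12, rose from 245 to 1591 in pachytene spermatocytes (log2 2.67), as Usp1 did, and Gmps, a partner of Usp7, from 319 to 1395 (log2 2.11). Of 13 tested SUMO and NEDD8 enzymes 6 were stage-regulated: Pias1 spanned 3.62-fold, and Pias4 rose in pachytene spermatocytes (log2 2.55) and again in round spermatids (1.59). Of 8 tested ubiquitin-like genes 2 were regulated, Ubl5 at 3.01-fold and Nedd8 at 2.90-fold.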

How the data were processed

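The authors deposited a single table of linear array signal intensities for 31099 probe sets in 69 samples of rat tubules, isolated cells and whole testis, made with MAS5 per the submitters' processing notes; its version is not given in the sources used here. The 57 control probe sets were left out. Of 31042 others, 20826 had 1 gene symbol, 436 had several and 9780 were unlisted; 20758 symbols were updated through RefSeq (GRCr8). The members and lists were chosen with earlier results of these data known.

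Signals were used as scaled, with 5.12 (the 10th percentile) added before log2. Probe sets above 43.7 (the 50th percentile) in at least 3 samples were tested with limma 3.58.1 in R 4.3.3 (with the data.table package, version 1.17.8), in 1 fit of the stages, 1 of the isolated cells and 1 of tubules with whole testis. Calls needed a Benjamini-Hochberg adjusted p under 0.05 and 2-fold; the code was tested on simulated data. A gene was stage-regulated when limma's F-test and the highest over the lowest stage mean passed both. Genes were named by a rule on the size of change in each comparison, on function, on probe sets that peaked at different stages and on the 2 largest of each pathway list, 38 members in all; other members are given with their role group. Alternatives were other constants, filters, scalings and probe set choices, the replicate block, 1 fit of all groups and leaving out libraries.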

Additional observations from a re-analysis of the deposited data

Results flagged for a closer look

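In 78 groups of 4 or 5 samples of the members named, 2 held a sample far from the rest of its group, where chance marks about 1 in 20. Usp25 at stage IV-V was 41.1 in replicate 5 and 56.5 to 58.6 in the other samples, on a signal near the table's median. Usp33 in pachytene spermatocytes was 26.7 in replicate 4 and 42.9 to 43.3 in the other samples; all 4 lie below all samples of spermatogonia plus early spermatocytes.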

How the results depend on the processing

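Members called stage-regulated ranged from 28 to 34 (32 as reported) over 59 alternatives and calls between neighbouring stages from 14 to 20 (17). Members higher in round spermatids than in pachytene spermatocytes ranged from 14 to 19 and lower from 7 to 9. The single values of named genes kept direction and side of the threshold in 2515 of their recomputations, lost the call in 6, gained it in 2 and reversed in 1, Ube2n. With the mean of all probe sets of a gene, the log2 difference between the stages reported as highest and lowest was -0.032 for Ube2n (0.22 as reported), whose own range was then 1.08 and called. That difference was 0.42 for Ube2b, 0.03 for Ube2h and 0.26 for Usp48, whose own log2 ranges of 0.61, 0.70 and 0.82 were not called, and 1.01 for Ube2a, 1.57 for Ube2g2 and 1.95 for Usp7, which were called. Sertoli-enriched members (4) were 7 with arrays scaled to 1 median and 2 with the mean of all probe sets. Members enriched in spermatogonia plus early spermatocytes (2) were 1 with the constant at the 25th percentile (14.8), 1 with quantile normalization, 0 with arrays scaled to 1 median, 1 without 5 libraries of high 3' to 5' ratio, and 1 to 2 with 1 library left out. Pachytene-enriched members (1) were 1 to 2 with 1 library left out. Members higher in whole testis (1) were 2 with a constant of 1, 0 with the constant at the 25th percentile, 2 with quantile normalization, 2 with arrays scaled to 1 median, 0 with the mean of all probe sets, and 1 to 2 with 1 library left out; members lower (0) were 0 to 1. The causes were not tested.

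Replicate numbers were not treated as pairs. Deviations from the group means of samples with the same number correlated at -0.0901 to 0.214 in tubules (39 of 216 pairs over 0.1). In isolated cells they correlated at -0.0423 to 0.134 (4 of 21). Medians for the same and for different numbers were 0.0505 and -0.0134 in tubules, and 0.0202 and -0.00232 in isolated cells. These low correlations cannot exclude that samples of different groups shared rats. With the replicate block 32 members were stage-regulated, 18 calls were made between neighbouring stages and 18 members were lower in pachytene spermatocytes. Signals under the table's median limit what can be said of Ube2d1, Usp27x and Usp25.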
